A study of Mus musculus with 7 samples.

Results

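The genes examined here encode the Mediator complex, the cohesin complex with its loading and release factors, and the DNA-binding proteins CTCF and YY1. They were taken from the count table by symbol: every symbol made of Med, a number and an optional l, plus Cdk8, Cdk19, Ccnc, Smc1a, Smc3, Rad21, Stag1, Stag2, Nipbl, Mau2, Wapl, Pds5a, Pds5b, Ctcf and Yy1. This gave 45 of the 55484 genes listed, of which 33 belong to Mediator and 12 to cohesin, Ctcf and Yy1. RNA was sequenced from 4 libraries of mouse embryonic fibroblasts (MEFs), the connective tissue cells grown from mouse embryos, and from 3 libraries of mouse embryonic stem cells (mESCs), the pluripotent cells of the early embryo kept in culture. Both cell types are labelled as of C57/Bl6 background, with no treatment, and the labels name neither a cell line nor an age, passage or culture medium. The study describes its transcriptional samples as biological replicates, in a number that differs from the 4 MEF libraries, and nothing in the labels says that the libraries came from separate cultures or animals. The p-values therefore measure only the spread between these samples, and how much of it is technical is not known. Among the MEF libraries the summed level of Y-linked genes, given below, ran from 0.613 to 91.0 CPM. These libraries therefore do not all look like repeats of 1 culture.

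Mediator passes signals from transcription factors on enhancers to RNA polymerase II at promoters. Its head and middle modules contact the polymerase, MED14 forms the backbone that holds them together with the tail, the tail binds activators, and a kinase module of CDK8 or CDK19 with cyclin C, MED12 and MED13 docks reversibly. Cohesin is a ring of SMC1A, SMC3 and RAD21 with a STAG subunit that holds sister chromatids together and extrudes DNA loops; NIPBL with MAU2 loads it, WAPL with PDS5 proteins releases it, and CTCF stops it at loop anchors, while YY1 binds promoters and enhancers and has been linked to loops between them. In mESCs, Mediator and cohesin are known for occupying the enhancers and promoters of active genes.

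The MEF libraries held 11441278, 7312679, 9176467 and 6528643 counts and the mESC libraries held 8193825, 8057985 and 7462710 counts, and the values below are given in this order. Levels are in CPM, the count relative to the total of its library, with totals scaled by the trimmed mean of M values (TMM), and 3 counts, taken as the floor, were worth 0.262 to 0.460 CPM. The markers of the labelled cell types differed as follows. The 10 pluripotency markers summed to 43.1 to 47.7 CPM in MEFs and 3234 to 3447 CPM in mESCs, and 10 fibroblast markers summed to 25700 to 41950 CPM in MEFs and 363 to 412 CPM in mESCs. The RNA extraction text attached to the libraries speaks of blood stem cells, and 6 blood and macrophage markers summed to 23.3 to 57.7 CPM in MEFs and 21.5 to 29.4 CPM in mESCs. Sums of the other marker lists were 27.1 to 35.4 CPM in MEFs and 13.5 to 39.9 CPM in mESCs for primitive endoderm (Sox17 and Foxa2 at 0 in every MEF library), 4.44 to 7.22 and 53.9 to 84.5 CPM for trophoblast, and 16.9 to 26.2 and 31.8 to 55.5 CPM for endothelium. They were 119.7 to 151.6 and 167 to 203.7 CPM for epithelium, 26.6 to 36.3 and 13.6 to 33.1 CPM for muscle, and 167.9 to 294.6 and 56.9 to 68.8 CPM for neural cells. Taken gene by gene, 1 of the 5 trophoblast markers lay above its MEF range in all mESC libraries and none lay below. Of these 5 markers, 2 were at or under the floor in all mESC libraries. For primitive endoderm, 4 of 6 markers lay above their MEF range in this way and none below. For endothelium it was 1 of 5 above and none below, and for epithelium 1 of 5 above and 2 below. The part of cells of the listed types in the results below was not tested. In such bulk samples, fewer cells of a type and less RNA per cell cannot be told apart. Because the libraries read only the 3′ end of transcripts, levels of different genes are not compared.

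All 45 genes passed the filter on low counts, and 18 of them (40.0%) differed between mESCs and MEFs at an adjusted p under 0.05 in edgeR's quasi-likelihood test, adjusted after Benjamini and Hochberg over the 16580 genes tested, against 47.9% of all genes tested. Of the 45, 12 were higher in mESCs, against a background of 22.8%, and 6 were lower, against 25.0%. Med26, among the 12, passed the filter only through its mESC libraries. The median log2 fold change of the 45 genes (mESC over MEF) was 0.10, beside 0.04 over all genes tested, and their median absolute log2 fold change was 0.41, beside 0.81 over all genes tested. The libraries of both cell types did not overlap for 22 genes, against 52.1% of all genes tested. When the difference was tested against a fold of 1.5, 5 genes passed, Wapl, Med19, Med31 and Smc3 as higher and Med14 as lower, against 34.4% of all genes tested. With library size alone in place of TMM, 16 genes were higher and 2 lower (88.9% of calls higher, in place of 66.7%), and with upper-quartile scaling 14 were higher and 2 lower (87.5%). Calls over all genes tested moved the same way. Of these, 5205 of 8539 were higher with library size alone and 4759 of 8355 with upper-quartile scaling, in place of 3785 of 7938. Library size alone moved the median over all genes up by 0.28 (log2) and upper-quartile scaling by 0.20, and under both Med9, Med10, Med28 and Stag2 were no longer called.

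**Figure D1:**
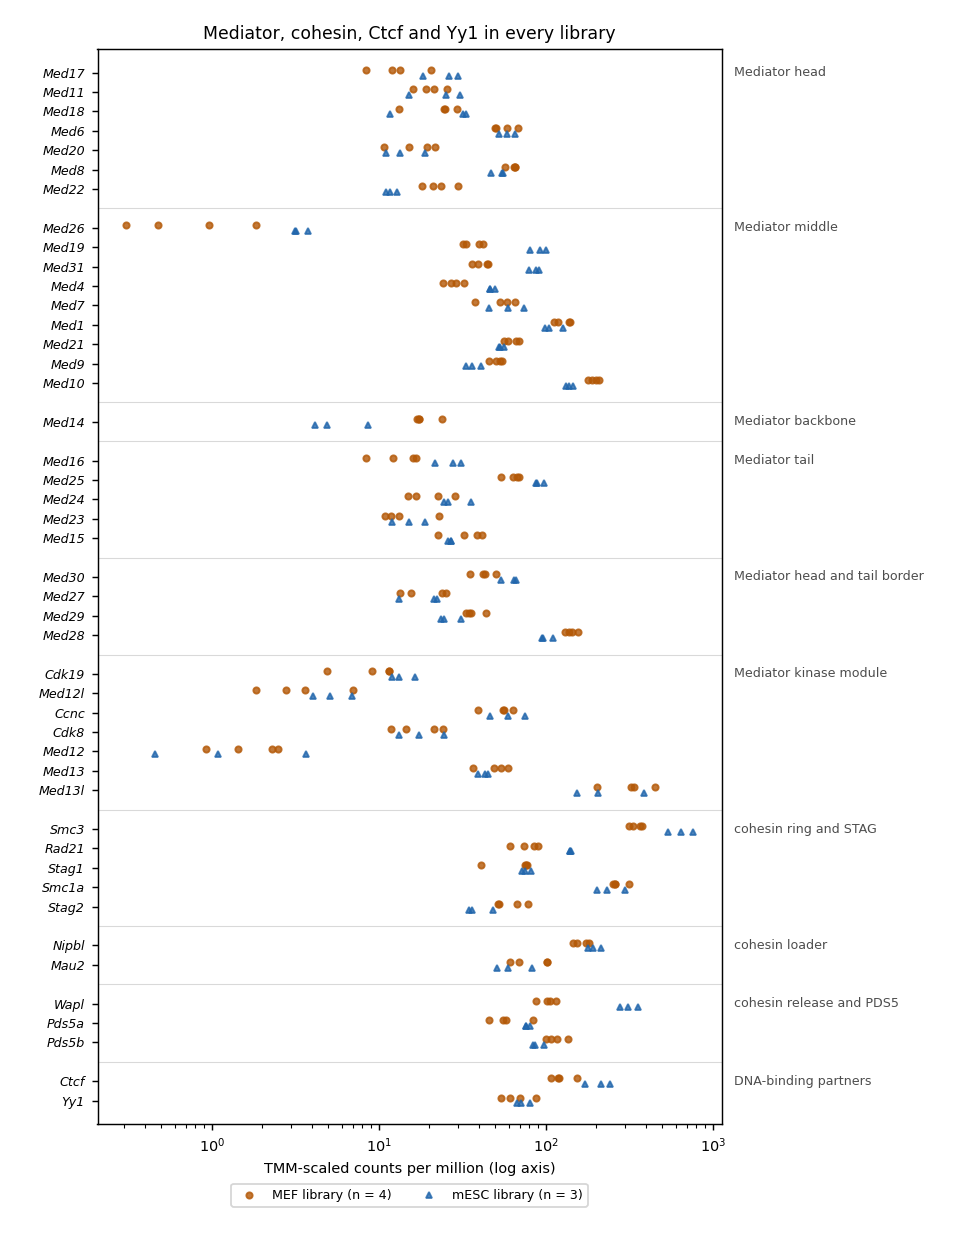
TMM-scaled CPM of each of the 45 genes (log axis) in the 4 MEF libraries (circles) and the 3 mESC libraries (triangles), grouped by complex and module and ordered within a module by log2 fold change. The 3 mESC libraries sit above all MEF libraries for Wapl, Med19, Med31, Smc3, Rad21, Ctcf, Med4, Med16, Med25, Med26, Med30 and Cdk19. They sit below all of them for Med14, Med22, Stag2, Med8, Med9, Med10, Med21, Med28, Med29 and Pds5b.

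**Figure D2:**
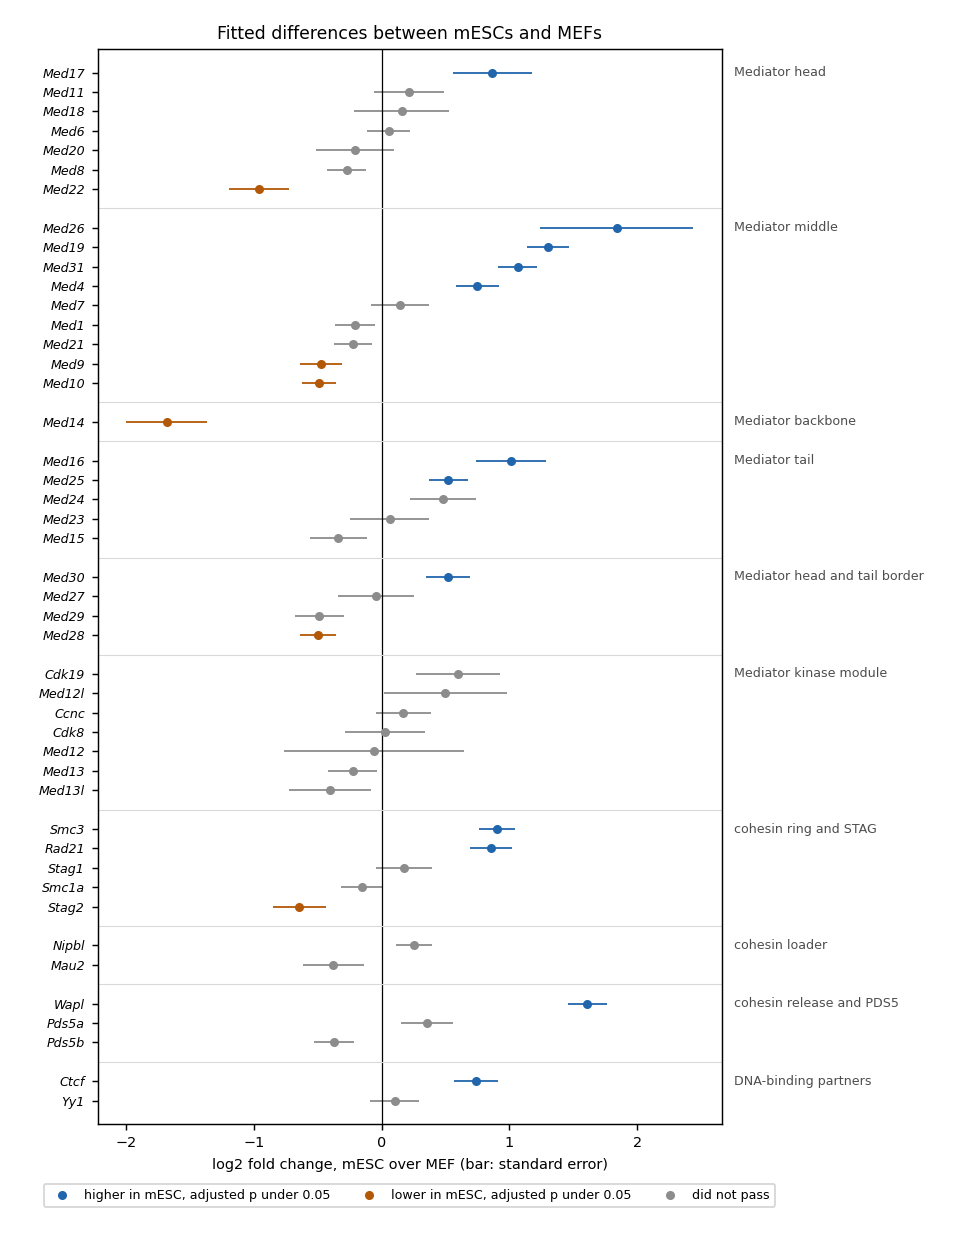
Fitted log2 fold change (mESC over MEF) of each gene with its standard error, in the same groups; blue marks genes called higher in mESCs, orange genes called lower and grey genes that did not pass. Called genes lie in both directions in the head and middle of Mediator and in the cohesin ring, and the 7 kinase module genes, all grey, range from -0.41 to 0.60.

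The starts of the genes that carry the clearest differences, and of Ctcf, are shown here, as RefSeq gives them on GRCm38.p6, from 250 bases before the transcription start to 50 bases from it on. Wapl and Med14 are shown as the most raised and most lowered of the genes that passed against a fold of 1.5, and Smc3, Ctcf and Med31 because their window holds the letters AANATGGC (on either strand), the core of the YY1 motif, which stands in capitals. Wapl lies at chr14:34673678-34673977 (plus strand), Med14 at chrX:12761924-12762223 (minus strand), Smc3 at chr19:53600146-53600445 (plus strand), Ctcf at chr8:105636288-105636587 (plus strand) and Med31 at chr11:72215543-72215842 (minus strand).
Wapl: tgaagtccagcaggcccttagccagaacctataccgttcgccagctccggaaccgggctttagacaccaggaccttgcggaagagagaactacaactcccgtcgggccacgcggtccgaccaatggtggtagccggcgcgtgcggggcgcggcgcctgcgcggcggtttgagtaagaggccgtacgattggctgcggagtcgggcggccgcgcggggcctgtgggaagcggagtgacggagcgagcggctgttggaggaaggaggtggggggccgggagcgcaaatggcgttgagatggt
Med14: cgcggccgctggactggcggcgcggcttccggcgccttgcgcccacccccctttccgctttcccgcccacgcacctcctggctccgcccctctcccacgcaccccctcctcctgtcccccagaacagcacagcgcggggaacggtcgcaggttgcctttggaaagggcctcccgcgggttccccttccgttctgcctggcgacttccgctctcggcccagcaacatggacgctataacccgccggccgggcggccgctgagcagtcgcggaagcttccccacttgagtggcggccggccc
Smc3: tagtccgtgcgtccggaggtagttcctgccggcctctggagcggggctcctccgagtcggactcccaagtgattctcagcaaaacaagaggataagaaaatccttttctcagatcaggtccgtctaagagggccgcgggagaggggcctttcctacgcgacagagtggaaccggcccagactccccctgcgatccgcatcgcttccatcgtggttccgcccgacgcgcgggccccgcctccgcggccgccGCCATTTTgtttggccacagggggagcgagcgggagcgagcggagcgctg
Ctcf: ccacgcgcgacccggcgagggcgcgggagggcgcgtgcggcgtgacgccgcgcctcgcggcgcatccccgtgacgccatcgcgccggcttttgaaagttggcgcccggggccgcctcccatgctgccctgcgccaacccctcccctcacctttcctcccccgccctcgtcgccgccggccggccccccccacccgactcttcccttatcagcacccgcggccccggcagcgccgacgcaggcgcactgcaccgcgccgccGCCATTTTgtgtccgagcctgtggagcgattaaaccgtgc
Med31: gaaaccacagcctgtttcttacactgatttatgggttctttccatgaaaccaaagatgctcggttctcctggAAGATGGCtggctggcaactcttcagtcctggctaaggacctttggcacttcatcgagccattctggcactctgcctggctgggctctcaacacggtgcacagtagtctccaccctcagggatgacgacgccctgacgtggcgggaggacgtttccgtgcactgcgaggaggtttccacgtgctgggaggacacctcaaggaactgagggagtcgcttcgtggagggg
The letters began at base 1 of the transcript in Smc3, at base 11 in Ctcf and 178 bases before the start in Med31. They occurred in 9 of the 42 windows of the 37 genes matched (21.4%), those of Ctcf, Med21, Med25, Med27, Med29, Med31, Pds5b, Smc3 and Stag1, and in 6.05% of the 32851 windows of the table. Of these 9 genes, Ctcf, Med25, Med31 and Smc3 were called higher, Med21, Med27, Med29, Pds5b and Stag1 did not pass, and this share is near the 47.9% called over all genes tested. A part of the CTCF motif, CAGGNGGC on either strand, occurred in 3 of the 42 windows (7.14%), those of Med10, Med26 and Yy1, and in 9.71% of all windows. In the Yy1 window it occurred at 239 and 232 bases before the start, in matches that overlap by their end base. Cdk19, Med8, Med23, Med24, Med30, Nipbl, Rad21 and Stag2 had no entry. The letters of both motifs were chosen after the promoters had been read, so these shares are no test of enrichment. The members all passed the filter on low counts, whereas the windows of the table were not filtered by expression. A match is a description of the letters and no evidence of a bound site.

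In the head of Mediator, which joins the polymerase and the general factors at the promoter, 1 of 7 genes was higher in mESCs and 1 was lower. Over all genes tested, 22.8% were higher and 25.0% lower. Med22 (GRCm38, chromosome 2, 26905262 to 26910677) stood at 23.6, 21.3, 18.1 and 29.9 CPM in MEFs and 13.0, 11.6 and 11.1 CPM in mESCs. The mESC libraries were all below the MEF libraries, with a log2 fold change of -0.96 ± 0.24 (SE; edgeR adjusted p = 0.0068), a level 1.94-fold lower. Med17, the head's scaffold, was called higher with a log2 fold change of 0.87 ± 0.31 (SE; edgeR adjusted p = 0.0396), although its libraries overlapped, and it kept its call in 2 of 7 fits that left out 1 library. The fits without the MEF library of 11441278, 7312679 or 6528643 counts or the mESC library of 8193825 or 7462710 counts lost it, at log2 fold changes of 0.69 to 1.13 over all 7 fits. Med6, Med8, Med11, Med18 and Med20 did not pass, with log2 fold changes of -0.27 (Med8) to 0.22 (Med11).

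In the middle of Mediator, 4 of 9 genes were higher and 2 lower, beside 22.8% and 25.0% of all genes tested, and modules were not tested against each other. MED19 and MED26 are peripheral subunits of the middle, and MED26 links Mediator to elongation factors. Med19 (chromosome 2, 84678402 to 84688215) stood at 39.8, 32.2, 33.4 and 42.3 CPM in MEFs and 80.8, 100.2 and 92.1 CPM in mESCs. Its lowest mESC library was above its highest MEF library, with a log2 fold change of 1.30 ± 0.17 (SE; edgeR adjusted p = 9.05e-05) and a level 2.47-fold higher. Med19 exons overlap those of Tmx2 and Zdhhc5 on the other strand over 12.9% of their length, and Tmx2 stood at 26.3 to 34.99 CPM in MEFs and at 43.6 to 52.9 CPM in mESCs, higher in every mESC library as Med19 was. Since the strand setting of the counting is not given in the sources used here, reads in the overlap cannot be told apart.
Med26 (chromosome 8, 72494561 to 72548270) had few reads, 19, 2, 8 and 3 counts in MEFs and 29, 33 and 27 counts in mESCs, that is 1.83, 0.306, 0.963 and 0.479 CPM and 3.16, 3.77 and 3.20 CPM. Every mESC library exceeded every MEF library, and 2 of the MEF libraries were at or under the floor. Med26 passed the filter on low counts only through its mESC libraries. Its place among the higher and the non-overlapping genes is therefore no separate support. The fitted difference was a log2 fold change of 1.84 ± 0.60 (SE; edgeR adjusted p = 0.0264), the widest error of the called genes, and it was called in 3 of 7 fits that left out 1 library. It was lost without the MEF library of 6528643 counts and without any 1 of the mESC libraries, and the log2 fold change ran from 1.56 to 2.46. Antisense Gm17435 covers 12.7% of its exons.
Med31 (chromosome 11, 72211724 to 72215592), a conserved small subunit whose promoter is printed above, stood at 36.4, 45.2, 39.1 and 44.4 CPM in MEFs and 87.4, 80.0 and 91.5 CPM in mESCs. The groups were well apart, with a log2 fold change of 1.07 ± 0.15 (SE; edgeR adjusted p = 0.000208) and a level 2.09-fold higher in mESCs. Its exons overlap 4930563E22Rik on the other strand over 26.3%, a gene that held at most 14 counts in a library. Med4, which pairs with MED9 in the body of the middle, was higher by 0.75 ± 0.17 (SE; edgeR adjusted p = 0.00382) without overlap.
Med10 (chromosome 13, 69802395 to 69816104), a conserved subunit of the middle, stood at 189.6, 209, 180.1 and 200.4 CPM in MEFs and 133, 145 and 139 CPM in mESCs. The mESC libraries were all lower, with a log2 fold change of -0.49 ± 0.13 (SE; edgeR adjusted p = 0.00982). Antisense Gm26819, which is not listed in the table, overlaps 92.8% of the exon length of Med10. Med9 (chromosome 11, 59948206 to 59962205) stood at 50.4, 46.1, 53.5 and 55.1 CPM in MEFs and 41.1, 33.2 and 36.4 CPM in mESCs. Again no mESC library reached a MEF library, with a log2 fold change of -0.48 ± 0.16 (SE; edgeR adjusted p = 0.0325), but 4 of 7 fits without 1 library lost the call: those without the MEF library of 9176467 or 6528643 counts or the mESC library of 8057985 or 7462710 counts, at -0.56 to -0.41.
Med1 (chromosome 11, 98152154 to 98193293), the subunit that nuclear receptors bind and a common marker of large enhancers, stood at 138, 140.1, 118 and 112 CPM in MEFs and 127, 98.7 and 105 CPM in mESCs. These values overlapped, and the log2 fold change of -0.21 ± 0.16 (SE; edgeR adjusted p = 0.312) did not pass. Med7 (0.15) and Med21 (-0.22), which form the hinge of the middle, did not pass either.

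Med14 (chromosome X, 12675369 to 12762073), the backbone of the complex, had the lowest log2 fold change of the 45 genes. It stood at 17.4, 24.1, 17.0 and 17.4 CPM in MEFs and 4.14, 4.91 and 8.65 CPM in mESCs. Every mESC library was below every MEF library, with a log2 fold change of -1.68 ± 0.32 (SE; edgeR adjusted p = 0.00132) and a level 3.21-fold lower in mESCs, and it was called in all 7 fits that left out 1 library, at -2.07 to -1.49. Med14 is 1 of 4 members on the X chromosome, with Med12, Smc1a and Stag2. Of these, Med14 and Stag2 were lower in mESCs and none was higher, beside 25.0% lower and 22.8% higher of all genes tested. Stag2 kept its call in 3 of 7 fits that left out 1 library, and lost it with library size alone and with upper-quartile scaling. A share over all X-linked genes was not computed. Libraries differed in the summed level of the Y-linked genes Ddx3y, Eif2s3y and Kdm5d, which was 2.12, 0.613, 91.0 and 88.8 CPM in MEFs and 1.74, 1.83 and 36.0 CPM in mESCs. The mESC library with the highest sum was also the highest of the mESC libraries for Med12, Med14, Smc1a and Stag2. Among the MEF libraries, Stag2 was higher in both libraries with a high sum (67.1 and 78.3 CPM) than in both with a low one (51.9 and 52.2 CPM). Smc1a stood at 317 and 261.2 CPM against 254.8 and 259.0 CPM, so only 1 of its libraries was set apart. The highest values of Med12 (2.51 CPM) and Med14 (24.1 CPM) fell in libraries with a low sum. The part of the difference in Y-linked sums in the results was not tested.

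In the tail, which binds activators, Med16 and Med25 were higher among 5 genes and none was lower. The shares over all genes tested were 22.8% higher and 25.0% lower. Med16 (chromosome 10, 79894708 to 79908923) stood at 8.39, 16.9, 16.1 and 12.1 CPM in MEFs and 28.0, 21.7 and 31.1 CPM in mESCs. The mESC libraries lay above the MEF libraries, which themselves spread widely, with a log2 fold change of 1.01 ± 0.28 (SE; edgeR adjusted p = 0.0109) and a level 2.02-fold higher in mESCs. Med25 was higher by 0.52 ± 0.15 (SE; edgeR adjusted p = 0.0149) without overlap and lost its call without the mESC library of 7462710 counts. Med24 (0.48), Med23 (0.06) and Med15 (-0.34) did not pass. Of the 4 genes at the border of head and tail, Med28 was lower and Med30 higher. Med28 (chromosome 5, 45520229 to 45529276) stood at 156, 143, 131 and 137 CPM in MEFs and 95.1, 96.5 and 110.0 CPM in mESCs. No mESC library reached the MEF range, with a log2 fold change of -0.50 ± 0.14 (SE; edgeR adjusted p = 0.0138), and the call was lost without the mESC library of 8193825 or 8057985 counts. Med30 was higher by 0.52 ± 0.17 (SE; edgeR adjusted p = 0.0272) without overlap, and its call was lost without the MEF library of 9176467 or 6528643 counts or the mESC library of 8057985 or 7462710 counts. Med27 (-0.04) and Med29 (-0.49, edgeR adjusted p = 0.0574) did not pass, although the libraries of Med29 did not overlap.

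None of the 7 genes of the kinase module passed the test, beside 47.9% of all genes tested. Only 1 of them, Cdk19, had libraries that did not overlap, beside 52.1% of all genes tested. Their median log2 fold change was 0.02. Cdk8 (chromosome 5, 146231230 to 146302874), the kinase that gives the module its name, stood at 24.3, 21.6, 14.6 and 11.8 CPM in MEFs and 24.6, 17.5 and 13.2 CPM in mESCs. These ranges overlapped, with a log2 fold change of 0.02 ± 0.31 (SE; edgeR adjusted p = 0.956). Its relative Cdk19 (chromosome 10, 40339564 to 40483818) stood at 4.92, 11.5, 9.15 and 11.5 CPM in MEFs and 12.1, 16.6 and 13.2 CPM in mESCs. The lowest mESC library was just above the highest MEF library, with a log2 fold change of 0.60 ± 0.33 (SE; edgeR adjusted p = 0.16), and it was called higher with library size alone (0.88, edgeR adjusted p = 0.0446).
Med12 (chromosome X, 101274030 to 101297465), which activates the kinase, stood at 2.51, 0.919, 2.29 and 1.44 CPM in MEFs and 1.09, 0.457 and 3.68 CPM in mESCs, from 4 to 31 counts a library. The mESC libraries held both the lowest and the highest value, with a log2 fold change of -0.06 ± 0.71 (SE; edgeR adjusted p = 0.951), so that no difference could be seen over the spread between libraries. Med12l (chromosome 3, 59005825 to 59318682) stood at 2.80, 1.84, 3.61 and 7.03 CPM in MEFs and 4.03, 6.96 and 5.10 CPM in mESCs. The groups overlapped, with a log2 fold change of 0.50 ± 0.48 (SE; edgeR adjusted p = 0.432). Igsf10, which has exons opposite those of Med12l, held 19.6 to 45.8 CPM in MEFs and 1.31 to 3.68 CPM in mESCs, and 17.3% of the exon length of Med12l is overlapped on the other strand.
Med13 (chromosome 11, 86267033 to 86357602), the link between the kinase module and the core complex, stood at 54.2, 59.9, 49.2 and 36.8 CPM in MEFs and 43.5, 39.6 and 45.3 CPM in mESCs. The mESC values fell within the MEF range, with a log2 fold change of -0.23 ± 0.19 (SE; edgeR adjusted p = 0.366). Med13l (chromosome 5, 118560679 to 118765438) stood at 337, 325, 451 and 204 CPM in MEFs and 205, 386 and 155 CPM in mESCs. It varied widely within both cell types, with a log2 fold change of -0.41 ± 0.32 (SE; edgeR adjusted p = 0.331), and it was called lower without the mESC library of 8057985 counts (-0.87, edgeR adjusted p = 0.033) and without a filter beyond 1 count (-0.44, edgeR adjusted p = 0.0439). Ccnc, the cyclin of the module, had a log2 fold change of 0.17 ± 0.22 (SE; edgeR adjusted p = 0.561) and did not pass.

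Among the 5 genes of the cohesin ring and its STAG subunits, Smc3 and Rad21 were higher in mESCs and Stag2 was lower. Of all genes tested, 22.8% were higher and 25.0% lower. Smc3 (chromosome 19, 53600398 to 53645833) stood at 366, 315, 333 and 379 CPM in MEFs and 542, 646 and 764 CPM in mESCs. All mESC libraries were above all MEF libraries, with a log2 fold change of 0.90 ± 0.14 (SE; edgeR adjusted p = 0.000403) and a level 1.87-fold higher. Rad21 (chromosome 15, 51962240 to 51991747), the kleisin that closes the ring, stood at 61.2, 90.1, 73.9 and 85.2 CPM in MEFs and 142, 139 and 139.9 CPM in mESCs. The mESC libraries lay close together above the MEF range, with a log2 fold change of 0.86 ± 0.16 (SE; edgeR adjusted p = 0.00131). Smc1a, the partner of SMC3 in the ring, had a log2 fold change of -0.16 ± 0.16 (SE; edgeR adjusted p = 0.467) and did not pass.
Stag1 (chromosome 9, 100597798 to 100959375) and Stag2 (chromosome X, 42149317 to 42277185) encode the alternative subunits that bind RAD21 and CTCF. Stag1 stood at 76.6, 41.2, 77.2 and 75.3 CPM in MEFs and 72.0, 75.6 and 81.3 CPM in mESCs. Apart from 1 low MEF library all values lay between 72.0 and 81.3 CPM, with a log2 fold change of 0.17 ± 0.22 (SE; edgeR adjusted p = 0.552). Stag2 stood at 51.9, 52.2, 67.1 and 78.3 CPM in MEFs and 36.4, 34.8 and 48.5 CPM in mESCs. Each mESC library was below each MEF library, with a log2 fold change of -0.64 ± 0.21 (SE; edgeR adjusted p = 0.0248). Leaving out the MEF library of 9176467 or 6528643 counts or the mESC library of 8193825 or 8057985 counts ended this call, at log2 fold changes of -0.81 to -0.53.

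Neither loader gene passed, beside 47.9% of all genes tested. Nipbl (chromosome 15, 8290617 to 8444463), which loads cohesin and drives loop extrusion, stood at 173, 146, 182 and 153 CPM in MEFs and 179, 192 and 215 CPM in mESCs. The lowest mESC library fell within the MEF range, with a log2 fold change of 0.26 ± 0.14 (SE; edgeR adjusted p = 0.164), and the gene was called higher with library size alone (0.54) and with upper-quartile scaling (0.45). Mau2, the partner of NIPBL, had a log2 fold change of -0.38 ± 0.24 (SE; edgeR adjusted p = 0.221).

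Wapl, which opens the ring and takes cohesin off DNA, differed most of the 10 cohesin genes among the 45. Wapl (chromosome 14, 34673928 to 34747983) stood at 116, 103, 87.7 and 106 CPM in MEFs and 309.6, 357 and 278 CPM in mESCs. The lowest mESC library held more than any MEF library by a wide margin, with a log2 fold change of 1.61 ± 0.15 (SE; edgeR adjusted p = 9.89e-06) and a level 3.05-fold higher in mESCs. It was called in all 7 fits that left out 1 library, at 1.51 to 1.69, and against a fold of 1.5 (edgeR adjusted p = 6.89e-05).
The PDS5 proteins help WAPL to release cohesin and also protect it. Pds5a (chromosome 5, 65605721 to 65698273) stood at 57.9, 83.8, 55.9 and 45.9 CPM in MEFs and 81.0, 76.0 and 76.6 CPM in mESCs. The mESC libraries were above 3 of the 4 MEF libraries, with a log2 fold change of 0.36 ± 0.20 (SE; edgeR adjusted p = 0.174). Pds5a was called higher with library size alone (0.65, edgeR adjusted p = 0.0155), with upper-quartile scaling (0.55, edgeR adjusted p = 0.0388) and without the MEF library of 7312679 counts (0.54, edgeR adjusted p = 0.0219). Pds5b (chromosome 5, 150673739 to 150810690) stood at 108, 118, 101 and 136 CPM in MEFs and 83.9, 85.8 and 98.4 CPM in mESCs. Its mESC libraries were all lower, with a log2 fold change of -0.37 ± 0.16 (SE; edgeR adjusted p = 0.0741).

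Ctcf (chromosome 8, 105636568 to 105682922), the zinc finger protein that marks loop anchors, stood at 153, 108, 121 and 119 CPM in MEFs and 172, 241 and 213 CPM in mESCs. Every mESC library was above every MEF library, with a log2 fold change of 0.74 ± 0.17 (SE; edgeR adjusted p = 0.00454) and a level 1.67-fold higher. Yy1 (chromosome 12, 108792973 to 108820148) stood at 53.8, 87.9, 60.9 and 69.8 CPM in MEFs and 67.1, 80.9 and 71.1 CPM in mESCs. The mESC values lay inside the MEF range, with a log2 fold change of 0.10 ± 0.19 (SE; edgeR adjusted p = 0.694).

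For 5 pairs of related genes that can take the same place in a complex, the ratio of counts within a library was compared, since it does not depend on scaling between libraries. The ratio of Stag1 to Stag2 counts was 1.48, 0.790, 1.15 and 0.961 in MEFs and 1.97, 2.16 and 1.67 in mESCs. It was higher in every mESC library, by 0.85 on the log2 scale (2 counts added), with p = 0.0571 in a two-sided exact permutation test over 35 splits, whose smallest possible p is 0.0286, and an adjusted p of 0.143 over the 5 pairs. The ratio of Pds5a to Pds5b counts was 0.537, 0.714, 0.555 and 0.340 in MEFs and 0.966, 0.886 and 0.779 in mESCs. This ratio was also higher in every mESC library, by 0.75, with the same exact permutation p of 0.0571 and adjusted p of 0.143, so neither passed. An adjusted p under 0.05 would have needed at least 3 of the 5 pairs at the smallest p, and was out of reach for 1 or 2 pairs. For Cdk8 to Cdk19 the difference was -0.60 (exact permutation p = 0.514), for Med12 to Med12l -0.94 (exact permutation p = 0.371) and for Med13 to Med13l 0.25 (exact permutation p = 0.543), each with overlapping libraries and an adjusted p of 0.543. Leaving out 1 library moved the Cdk8 to Cdk19 difference between -0.92 (without the mESC library of 8193825 counts) and -0.17 (without the MEF library of 11441278 counts), and that of Med12 to Med12l between -1.64 (without the mESC library of 7462710 counts) and -0.17 (without the mESC library of 8057985 counts).

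**Figure D3:**
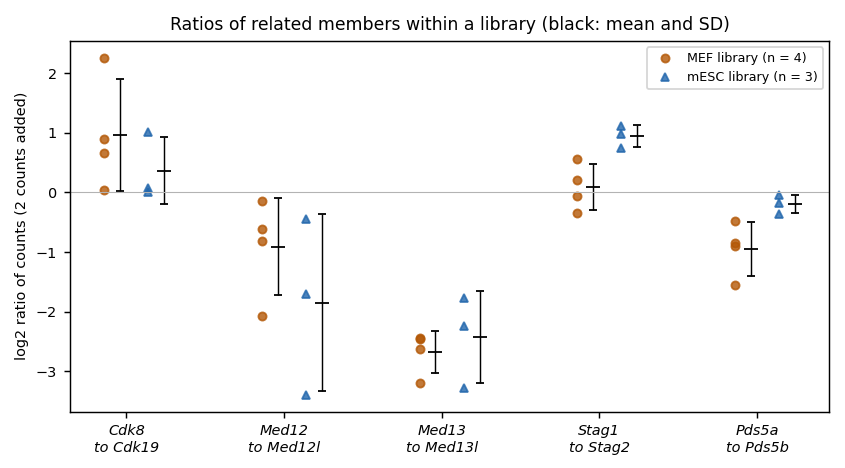
log2 ratio of the counts of related genes in each MEF library (circles, n = 4) and mESC library (triangles, n = 3), with 2 counts added to each gene; black marks show the mean and SD of each group. The mESC libraries lie above the MEF libraries for Stag1 to Stag2 and for Pds5a to Pds5b, and overlap them for the other 3 pairs.

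Other genes of the same processes were read from lists of 75 genes, of which 71 were tested, with 37 higher and 5 lower in mESCs (59.2% called, beside 47.9% of all genes tested, with 22.8% higher and 25.0% lower). The lists were chosen with earlier results of these data known, and Zfp42 is also among the pluripotency markers above. The shares called therefore describe these lists and are no test of them. The list of cohesin acetylation, protection and cleavage had 7 of 8 genes higher and 1 lower. Esco2, which acetylates SMC3 in S phase, rose from 45.7 to 69.1 CPM in MEFs to 428.9 to 558.3 CPM in mESCs, with a log2 fold change of 3.09 ± 0.18, edgeR adjusted p = 2.94e-07. Hdac8, which removes that acetyl group, was the 1 lower gene, at -0.98 ± 0.36, edgeR adjusted p = 0.0464. Of the meiotic cohesin genes 3 of 4 were tested and all 3 were higher, with Smc1b (4.67 ± 0.65, edgeR adjusted p = 0.000172) the highest. Rec8, the lowest of the 3, held 2, 1, 1 and 11 counts in MEFs, with 3 libraries at or under the floor, and 111, 61 and 73 counts in mESCs, so that its fitted fold depends on the prior count. Stag3 held 6, 5, 3 and 5 counts in MEFs and 77, 137 and 107 counts in mESCs. Both Rec8 and Stag3 passed the filter on low counts only through their mESC libraries. Their direction was therefore largely set by the filter and is no separate support. Smc1b held 0 to 4.94 CPM in MEFs and 36.2 to 81.2 CPM in mESCs. Rad21l did not pass the filter.
Shares called near or below that of all genes were found for condensin (37.5%), the SMC5/6 complex (50%) and transcription kinases and elongation factors (40.0%). Condensin had 3 of 8 genes higher and none lower, from Ncapd2 (1.18 ± 0.17, edgeR adjusted p = 0.000177) to Ncapd3 (1.74 ± 0.23, edgeR adjusted p = 0.000103). The SMC5/6 complex had 1 of 6 tested genes higher, Nsmce4a (1.13 ± 0.13, edgeR adjusted p = 4.77e-05), and 2 lower, with Smc6 (-0.60 ± 0.13, edgeR adjusted p = 0.0033) the lowest. Among relatives and cofactors of CTCF and YY1, 3 of 5 tested genes were higher, with Zfp143 (1.08 ± 0.28, edgeR adjusted p = 0.00925) the lowest and Zfp42, a YY1 relative known as the pluripotency marker REX1, the highest. Zfp42 was at or under the floor in every MEF library (3, 2, 3 and 1 counts) and held 377, 397 and 360 counts in mESCs, so its fitted fold depends on the prior count and is not given. It too passed the filter on low counts only through its mESC libraries. Ctcfl and Yy2 did not pass the filter. RNA polymerase II subunits were higher in 7 of 13 cases and lower in 1, from Polr2m (-0.53 ± 0.14, edgeR adjusted p = 0.0109) to Polr2e (1.32 ± 0.15, edgeR adjusted p = 3.78e-05). Transcription kinases and elongation factors were higher in 5 of 15 cases and lower in 1, from Cdk7 (-0.68 ± 0.21, edgeR adjusted p = 0.0201), the kinase of TFIIH, to Ccnt1 (1.12 ± 0.23, edgeR adjusted p = 0.00244), a cyclin of the elongation kinase CDK9. The proliferation list had 8 of 13 genes higher and none lower, with Mcm2 (1.48 ± 0.19, edgeR adjusted p = 8.61e-05) the highest and Aurkb (0.85 ± 0.16, edgeR adjusted p = 0.00121) the lowest of the called genes. The median log2 fold change was 0.99 for the proliferation list, 1.54 for cohesin acetylation, protection and cleavage, and 0.22 for the 12 cohesin, Ctcf and Yy1 genes. Of the proliferation genes 61.5% were called, beside 47.9% of all genes tested, and their part in the differences of cohesin genes was not tested.

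**Figure D4:**
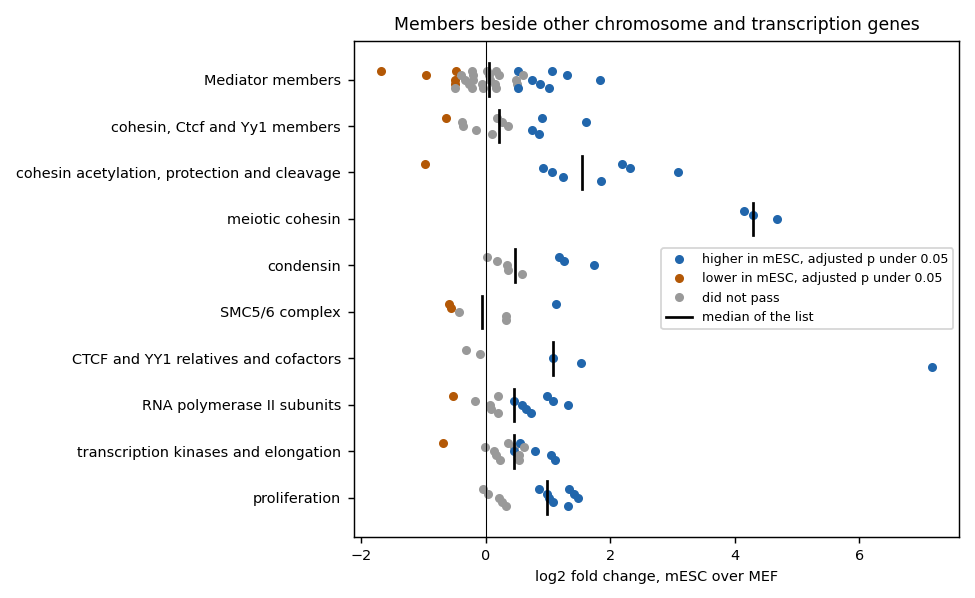
log2 fold change (mESC over MEF) of each tested gene of Mediator, of cohesin with Ctcf and Yy1, and of 8 lists of related genes; blue marks genes called higher in mESCs, orange genes called lower, grey genes that did not pass, and the black bar the median of a list. The medians of Mediator (0.06) and of cohesin with Ctcf and Yy1 (0.22) lie near 0, and the 3 tested meiotic cohesin genes lie to the right of all genes but Zfp42. The positions of Zfp42, Rec8 and Stag3, at or near the floor in MEFs, depend on the prior count, and Smc1b held 0 counts in 1 MEF library. Zfp42, Rec8 and Stag3 passed the filter on low counts only through their mESC libraries.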

How the data were processed

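RNA from 4 MEF and 3 mESC libraries was read with 3′-biased, molecule-tagged sequencing. The authors demultiplexed and trimmed the reads and aligned them with STAR to mm10, the same build as GRCm38. The submitters' notes name STAR 2.4.2a, whereas the methods of the study name a later version. The authors then collapsed molecular tags with Je and assigned the uniquely mapped reads to exons by featureCounts. They deposited whole-number counts, not normalized. The annotation release and strand setting are not given in the sources used here, so counts of genes with antisense partners are uncertain. On the same strand, Gm21986 overlaps 9.72% of the exon length of Med12 and Gm20517 overlaps 7.00% of that of Med20. No strand setting tells such reads apart. The table had 0 unused columns. Column names do not tie to numbered samples, so libraries are named by total counts (6528643 to 11441278), and these totals set the precision, for counting error only.

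Counts were fitted with edgeR 4.0.16 (limma 3.58.1, R 4.3.3): TMM, filterByExpr, quasi-likelihood test over all 7 libraries, no covariates, Benjamini-Hochberg adjusted p under 0.05. Standard errors were the log2 fold change divided by the root of F. Ratios within a library were compared by a two-sided exact permutation test. Alternatives were DESeq2 1.42.0, other scalings, filters, a test against a fold of 1.5, another prior count and leaving out each library. Code was tested on simulated data. Gene positions and overlaps are from GENCODE M21 and promoter windows from RefSeq.

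Members and lists were chosen with earlier results of these data known, and the motif letters after the promoters had been read. Named with values in every library were the 6 called genes at each end of the log2 fold changes, the 10 genes of the 5 pairs, Ctcf, Yy1, Rad21, Smc3, Nipbl and Med1; each related list gives its extreme called genes.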

Additional observations from a re-analysis of the deposited data

Results flagged for a closer look

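Of the 45 genes, 4 had 1 MEF library set apart from the other 3, by Dixon's test on the 4 MEF libraries, where chance alone gives about 1 in 20. The test sets the gap against the range, so a small shift is flagged where the other libraries lie close together, as for Med8. Med8, a head subunit, stood at 57.0 CPM in the MEF library of 6528643 counts and at 64.6 to 65.7 CPM in the others. Med14 stood at 24.1 CPM in the MEF library of 7312679 counts and at 17.0 to 17.4 CPM in the others, and its log2 fold change was between -2.07 and -1.49 whichever library was left out. Smc1a stood at 317 CPM in the MEF library of 9176467 counts and at 254.8 to 261.2 CPM in the others. Stag1 stood at 41.2 CPM in the MEF library of 7312679 counts and at 75.3 to 77.2 CPM in the others, and without that library its log2 fold change was -0.01 in place of 0.17.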

How the results depend on the processing

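Of the 18 called genes, Med14, Med19, Med31, Smc3 and Wapl were called in every one of the 14 alternative fits. Med4, Med16, Med22, Rad21 and Ctcf were called in all but the test against a fold of 1.5. DESeq2's Wald test and its size factors in edgeR each gave the same 18 genes, and the stricter filter added Med29 and left Med12 untested. Against a fold of 1.5, 5 genes were called (4 higher, 1 lower), 3 of them of Mediator and 2 of the cohesin, Ctcf and Yy1 genes, and 25 genes of the related lists in place of 42. The share called over all genes tested was 34.4% against this fold, in place of 47.9%. Library size alone gave 2 lower genes and upper-quartile scaling gave 2, in place of 6. Both scalings lost Med9, Med10, Med28 and Stag2 and gained Nipbl and Pds5a, and library size alone also gained Cdk19 and Med24. Over all genes tested, 51.5% were called with library size alone and 50.4% with upper-quartile scaling. Without a filter beyond 1 count, Med9, Med25 and Med30 were lost and Med13l was gained.

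The sign turned for genes that had not passed: with library size alone Med8 (0.01), Med20 (0.07), Med1 (0.08), Med21 (0.06), Med27 (0.24), Med12 (0.23), Med13 (0.07) and Smc1a (0.13), with upper-quartile scaling Med27 (0.15), Med12 (0.14) and Smc1a (0.04), and without the filter Cdk8 (-0.01). Leaving out 1 library gave 13 to 18 called genes and 8 to 12 of Mediator, in place of 13, the 8 without the mESC library of 7462710 counts. The share called over all genes tested also fell in these fits, to 40.8% to 46.5% in place of 47.9%. Over the same fits the log2 fold change ran from -0.03 to 0.14 for Med6, -0.02 to 0.45 for Med11, -0.08 to 0.50 for Med18, -0.05 to 0.30 for Med7, -0.11 to 0.35 for Med23, -0.19 to 0.16 for Med27, -0.25 to 0.21 for Cdk8, -0.03 to 0.32 for Ccnc, -1.21 to 0.39 for Med12, -0.01 to 0.24 for Stag1 and -0.00 to 0.24 for Yy1. The fits without the MEF library of 7312679 counts, the mESC library of 8193825 counts and the mESC library of 8057985 counts gained Pds5a, Med29 and Med13l, respectively. The log2 ratio of Med13 to Med13l ran from -0.07 (without the mESC library of 7462710 counts) to 0.68. Beyond the scaling itself, the causes were not tested. Med12 and Med26 had the fewest counts, 2 to 33 a library. With 4 and 3 libraries the exact permutation test cannot go below 0.0286. No paired analysis was possible because the column names carry no number tied to a sample.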
